A study of Mus musculus with 16 samples.

Results

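Genes that the retina and the pineal gland use were followed in total RNA from brain cells labelled as microglia. They came from mice with experimental autoimmune encephalomyelitis (EAE) and from control mice. The 8 genes are Pde6g, Pde6b, Crx, Sag, Gngt1, Aanat, Asmt and Tph1, taken by symbol as 8 of the 21878 mRNAs in the deposited tables. The group was chosen by its EAE against PBS differences in the counts and FPKM of these libraries, that of Pde6g first. All differences between the groups for these 8 genes are therefore given as descriptions, without p-values.

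The cells were labelled as CD11b+/CD45int microglia sorted from the brain of female wild-type C57BL/6 mice aged 8 weeks. The 8 EAE mice received MOG35-55 peptide in complete Freund's adjuvant with 200 ng of pertussis toxin on days 0, 2 and 7, and were harvested on day 14 at a clinical score of 3 to 4. The treatment field of the labels raises the last peptide residue by 1 from each EAE mouse to the next, from 55 to 62, while the study's methods name MOG35-55 alone. The 8 control mice received PBS by the same schedule, so that adjuvant, peptide and toxin all differ between the groups and their parts cannot be told apart.

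Each mouse gave 1 ribosomal RNA-depleted library. Total counts over mRNAs ran from 24587443 to 30244215 in the EAE libraries and from 26031889 to 34184576 in the PBS libraries. The 3 EAE libraries 6, 7 and 8 and the 3 PBS libraries 5, 7 and 8 were more alike than the rest, with count differences 3.12 to 4.02 times the Poisson level within a group against 6.06 to 24.4 for all other pairs. Values that rest on these sets are given for each set below. The summed FPKM (fragments per kilobase of transcript, scaled to library size) of 8 microglial markers was 117 to 193 in EAE and 104 to 178 in PBS libraries. The summed markers of neurons, astrocytes and oligodendrocytes were each higher than the microglial sum in 16 of 16 libraries, by 4.37 to 9.31 times, although the labels describe a microglial gate. Transcripts that mark other brain cells were thus present in every library, and in such bulk samples fewer cells of a type and less RNA per cell cannot be told apart.

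In rods, light switches on the G protein transducin through a receptor, which frees the catalytic subunits of a cGMP phosphodiesterase from their inhibitory gamma subunits, and cGMP-gated channels close as cGMP falls. Arrestin then ends the signal at the receptor. Pinealocytes share an origin and many of these genes with photoreceptors, and both depend on the homeobox factor Crx. At night adrenergic input drives the pineal gland to turn serotonin into melatonin through the enzymes encoded by Aanat and Asmt. Many laboratory strains, C57BL/6 among them, make little melatonin because of changes in these enzymes.

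Within the group, Pde6g encodes the inhibitory gamma subunit of the rod phosphodiesterase and Pde6b its catalytic beta subunit. Gngt1 encodes the gamma subunit of rod transducin and Sag the rod arrestin. Crx is the transcription factor. Tph1 encodes the first enzyme on the path from tryptophan to serotonin, Aanat the acetyltransferase that acts on serotonin, and Asmt the methyltransferase that makes melatonin.

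In GRCm38 with GENCODE annotation, all 8 are protein-coding genes with no other gene overlapping them. Pde6g lies at chr11:120447605-120453500 on the minus strand and Pde6b at chr5:108388391-108432397 on the plus strand. Crx lies at chr7:15865947-15879968 on the minus strand, Sag at chr1:87803680-87845158 on the plus strand and Gngt1 at chr6:3993792-3997436 on the plus strand. Aanat lies at chr11:116586432-116597680 on the plus strand, Asmt at chrX:170672644-170678054 on the plus strand and Tph1 at chr7:46644641-46672537 on the minus strand. RefSeq places 3 further genes over Pde6b and 1 over Gngt1. How the counting treated reads that overlap more than 1 gene was not tested.

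The homeodomain factors Crx and Otx2 recognise the letters TAATCC, and GGATTA is the same run on the other strand. RefSeq promoter windows of GRCm38.p6, which reach from 250 bases before a gene's start to 50 bases after it, were searched for these letters on both strands. A window was usable for 5 of the 8 genes (Crx, Gngt1, Sag, Pde6b and Tph1), and 3 of the 5 genes held these letters. By window this was 3 of 6, against 7.06% of 32843 windows of all genes. The 3 windows with a match are printed 5′ to 3′ on the gene's strand with the match in capitals, to show where these letters stand in Crx itself and in 2 rod genes. They are chr7:15879906-15880205 on the minus strand for Crx, chr6:3993758-3994057 on the plus strand for Gngt1 and chr1:87803430-87803729 on the plus strand for Sag.
Crx: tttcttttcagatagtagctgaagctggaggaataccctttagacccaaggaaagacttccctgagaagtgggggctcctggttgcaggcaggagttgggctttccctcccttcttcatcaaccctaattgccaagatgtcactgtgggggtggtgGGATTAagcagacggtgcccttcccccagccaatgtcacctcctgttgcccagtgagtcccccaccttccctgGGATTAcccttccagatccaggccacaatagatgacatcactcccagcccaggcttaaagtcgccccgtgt
Gngt1: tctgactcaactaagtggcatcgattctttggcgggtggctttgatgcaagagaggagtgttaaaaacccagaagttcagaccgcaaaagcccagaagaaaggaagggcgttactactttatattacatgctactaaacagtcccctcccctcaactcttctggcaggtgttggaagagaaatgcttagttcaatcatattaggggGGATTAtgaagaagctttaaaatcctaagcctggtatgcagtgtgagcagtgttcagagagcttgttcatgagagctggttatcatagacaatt
Sag: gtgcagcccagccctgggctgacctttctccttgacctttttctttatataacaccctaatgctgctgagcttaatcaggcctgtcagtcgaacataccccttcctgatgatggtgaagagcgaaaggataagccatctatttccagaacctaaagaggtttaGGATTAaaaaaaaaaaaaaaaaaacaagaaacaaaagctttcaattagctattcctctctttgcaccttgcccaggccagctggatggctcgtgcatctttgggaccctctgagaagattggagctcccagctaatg
Crx held 2 matches, 89 to 94 and 16 to 21 bases before its start, Gngt1 held 1 match 39 to 44 bases before its start, and Sag held 1 match 82 to 87 bases before its start. Among other genes of phototransduction 7 of 18 with a window held them, and among those of photoreceptor structure and retinoid handling 5 of 13. They were in 3 of 14 genes of photoreceptor and pineal transcription factors, 1 of 10 of serotonin and melatonin metabolism and 0 of 7 of adrenergic signalling. A match of letters is a description of the window and no measure of binding.

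Read as levels per transcript length, the 8 genes were all low. Aanat had the highest mean FPKM over the 16 libraries at 0.883 ± 0.271 (SD, n = 16), followed by Pde6b at 0.646 ± 0.197 and Sag at 0.593 ± 0.145. Pde6g stood at 0.156 ± 0.159. Asmt at 0.0437 ± 0.0584, Tph1 at 0.0413 ± 0.0217, Crx at 0.0105 ± 0.0166 and Gngt1 at 0.0021 ± 0.0045 came last.

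Aanat was above Pde6b in 15 of 16 libraries, whereas Pde6b was above Sag in 10 of 16, so the order of the latter pair lay within its spread. Sag was above Pde6g in 16 of 16 libraries. Pde6g was above Asmt in 12 of 16, and Asmt above Tph1 in 6 of 16, so that Asmt and Tph1 were not separated. Crx, Asmt, Tph1 and Gngt1 had at most 4, 6, 10 and 1 counts in any library. Aanat, Pde6b and Sag had counts in 16 of 16 libraries, and Tph1 in 15. Because levels differed this much between the genes, the group is described gene by gene below and not as a pineal programme.

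**Figure D1:**
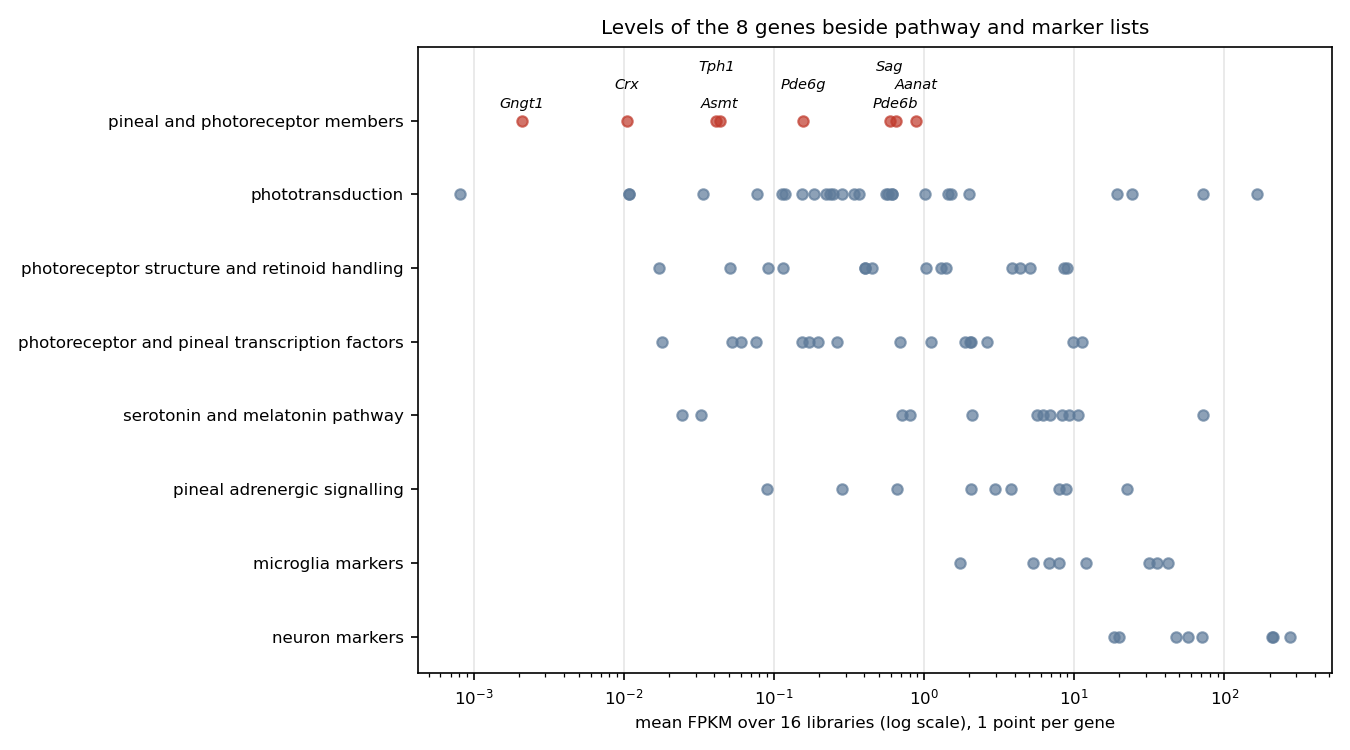
Mean FPKM over 16 libraries on a log scale (x axis), with 1 point per gene in each row and the 8 genes named in the top row. The 8 genes ran from 0.0021 (Gngt1) to 0.883 (Aanat) and all lay below the microglial and neuronal markers plotted in the bottom rows.

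Pde6g was lower in EAE than in PBS libraries. Its raw counts were 5, 2, 1, 4, 1, 1, 0 and 0 in EAE libraries 1 to 8 and 3, 11, 15, 17, 5, 5, 6 and 18 in PBS libraries 1 to 8. In all, 6 of the 8 EAE libraries were below every PBS library, and the groups overlapped at the values of EAE 1 and EAE 4. A count of 0, as in EAE 7 and EAE 8, allows up to 3 counts.

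On the FPKM scale Pde6g was 0.0516 ± 0.0543 (SD, n = 8) in EAE and 0.261 ± 0.162 (n = 8) in PBS libraries, with medians of 0.0306 and 0.199. Summed over the libraries, 14 counts in EAE stood against 80 in PBS. In counts scaled to the library total (CPM), PBS was 5.05-fold higher, with a 95% exact interval of 2.84 to 9.65 that covers counting error only. The EAE value was the lower one in 58 of 64 pairs of an EAE and a PBS library.

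The edgeR quasi-likelihood fit over 17885 mRNAs gave Pde6g a log2 fold change of −2.32 (SE 0.60). Pde6g was 1 of 21 DEmRNAs (adjusted p under 0.05 and absolute log2 fold change over 1) in that fit, which are 0.117% of the mRNAs tested, and 1 of the 4 that were lower in EAE (0.0224%). Nothing is read from this count or from the further calls on Pde6g below, since the contrast chose the gene. The 2 sets of libraries are parts of the data that chose the gene, so their values are descriptions too. The 3 most alike EAE libraries held 1 count in all against 29 in the 3 most alike PBS libraries (log2 fold change −4.20, SE 1.24). The remaining 5 of each group held 13 against 51 (−1.88). DESeq2 gave Pde6g a log2 fold change of −2.40 (SE 0.66) and left it without an adjusted p. Such a gene counts as not called here, so DESeq2 made no call on Pde6g. With edgeR, Pde6g did not reach the DEmRNA thresholds within those remaining libraries. In fits that each left out 1 library it reached them in 5 of 16 (without EAE 1, EAE 4, EAE 5, PBS 1 or PBS 6). In these fits the log2 fold change ran from −2.73 to −2.14.

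**Figure D2:**
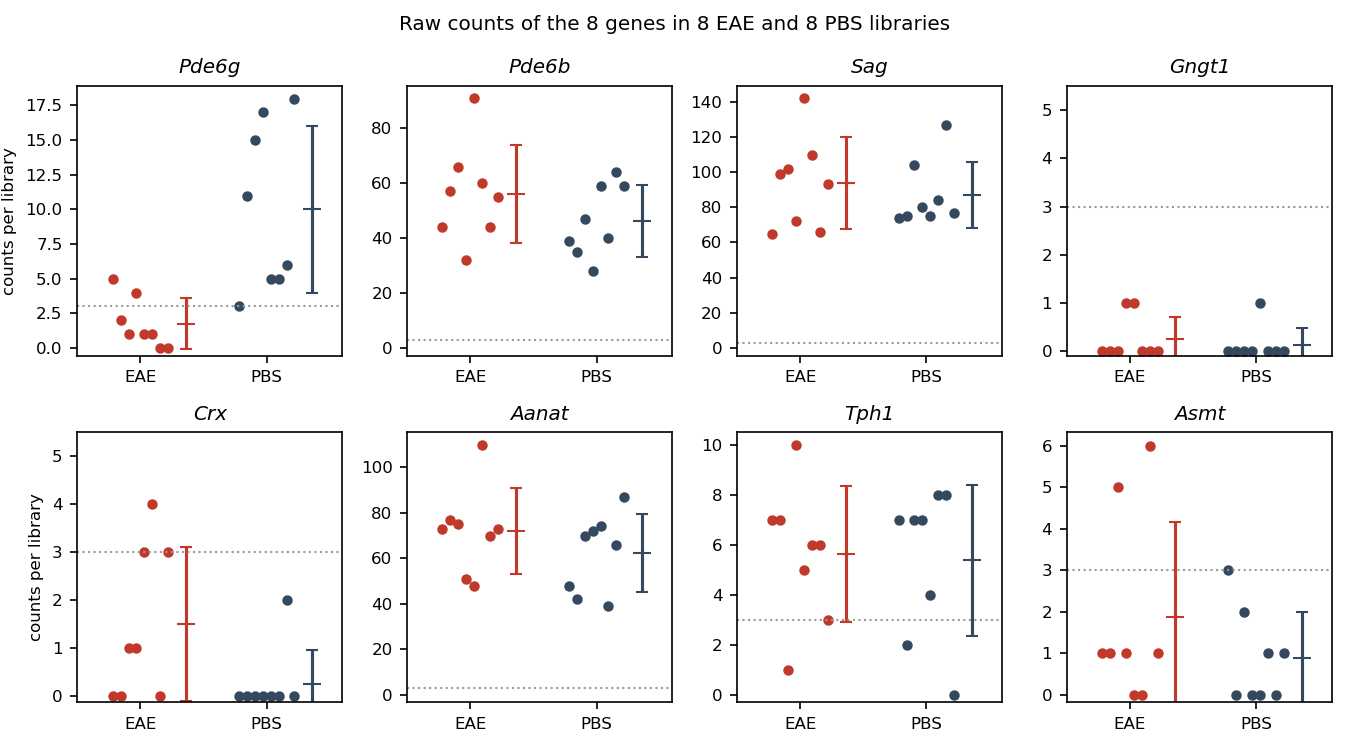
Raw counts per library (y axis, a separate scale for each gene) in the 8 EAE and 8 PBS libraries, with the mean and SD beside each group and a dotted line at the 3 counts that a count of 0 allows. Pde6g ran from 0 to 5 in EAE and from 3 to 18 in PBS, while the groups of the other 7 genes overlapped broadly.

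Pde6b, whose product Pde6g inhibits, did not follow it. Its FPKM ran from 0.437 through a median of 0.773 to 1.07 in EAE libraries and from 0.346 through 0.573 to 0.679 in PBS libraries. Of the EAE libraries, 5 were above every PBS library, and the others overlapped. The fitted log2 fold change was 0.40 (SE 0.20), and 449 against 371 summed counts gave a CPM ratio of 1.37 (1.19 to 1.58, counting error only).

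Within the most alike libraries the Pde6b counts were 44 to 60 in EAE and 59 to 64 in PBS, with mean FPKM of 0.716 and 0.662. In the remaining libraries the means were 0.765 and 0.475, so that most of the difference came from these. Pde6a, the catalytic alpha subunit of the same rod enzyme, had a mean FPKM of 0.617 in EAE and 0.604 in PBS. Mean Pde6b was 14.5 times mean Pde6g per length in EAE and 2.09 times in PBS, and it was the higher of the 2 genes in 8 of 8 EAE and 7 of 8 PBS libraries.

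Sag, which encodes rod arrestin, had FPKM values from 0.444 through a median of 0.689 to 0.867 in EAE and from 0.420 through 0.520 to 0.706 in PBS libraries. The ranges overlapped, with 3 EAE libraries above every PBS library. Its log2 fold change was 0.22 (SE 0.17). Its raw sums of 749 and 696 counts were close, and the CPM ratio was 1.22 (1.10 to 1.35, counting error only), since the EAE libraries were smaller.

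Gngt1, the transducin gamma subunit of rods, had 1 count in each of EAE 4, EAE 5 and PBS 5, and 0 in the other 13 libraries. Each 0 allows up to 3 counts, so no difference between the groups was detectable at this depth. The CPM ratio from these 2 and 1 counts was 2.26, with an interval of 0.118 to 134.

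Crx showed counts mainly in EAE libraries. The counts were 0, 0, 1, 1, 3, 4, 0 and 3 in EAE libraries 1 to 8, and 0 in every PBS library except PBS 7, which had 2. Of the EAE libraries, 3 were above every PBS library, and 3 were at 0 like most of the PBS libraries.

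The 12 Crx counts in EAE and 2 in PBS gave a CPM ratio of 6.79 (1.51 to 62.5, counting error only). With 14 counts in all, Crx did not reach the 16 counts required for the fit. Mean FPKM was 0.0186 ± 0.0198 (SD, n = 8) in EAE and 0.0024 ± 0.0069 (n = 8) in PBS. Of the 6 libraries with a Crx count, 3 also held an Asmt count and 2 a Gngt1 count. Crxos, 2649 bases from Crx on the opposite strand, had a mean FPKM of 0.0488 and a log2 fold change of −0.09 (SE 0.62).

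Aanat was detected in 16 of 16 libraries. Its FPKM ran from 0.582 through a median of 1.03 to 1.53 in EAE and from 0.466 through 0.769 to 1.03 in PBS libraries. In EAE, 4 libraries lay above every PBS library and the rest overlapped. The log2 fold change was 0.35 (SE 0.20), and it ran from 0.24 without EAE 6, the library with the most counts, to 0.44 without EAE 5.

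Asmt, the enzyme after Aanat, and Tph1, further up the path, were lower than Aanat in level per length. Asmt counts were 1, 1, 5, 1, 0, 0, 6 and 1 in EAE and 3, 0, 2, 0, 0, 1, 0 and 1 in PBS libraries 1 to 8. Most libraries of both groups were at 0 or 1, and EAE 3 and EAE 7 held 11 of the 15 EAE counts.

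The log2 fold change of Asmt was 1.10 (SE 0.89), which fell to 0.60 without EAE 7 and rose to 1.65 without PBS 1. Tph1 had 7, 7, 1, 10, 5, 6, 6 and 3 counts in EAE and 7, 2, 7, 7, 4, 8, 8 and 0 in PBS libraries. Its groups overlapped throughout, with the EAE library lower in 32 and higher in 32 of 64 pairs, and its log2 fold change was 0.16 (SE 0.52). Mean Aanat was 16.6 times mean Asmt per length in EAE and 28.2 times in PBS, and 22.8 and 19.8 times mean Tph1. Rhbdf2, which lies 485 bases from Aanat on the opposite strand, had a mean FPKM of 1.05, near that of Aanat. The strand setting of the counting is not given in the sources used here, so a share of reads from this neighbour in the Aanat counts was not tested.

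Of the 8 genes, 6 passed the filter of 16 counts. Of these, 5 had a fitted log2 fold change above 0 (0.16 to 1.10) and 1, Pde6g, below 0, beside a median of 0.01 over all mRNAs tested. Tph1 was −0.03 without PBS 8 and −0.008 without EAE 4. It was −0.04 (SE 0.64) in the other 5 libraries of each group and 0.59 (SE 0.91) within the most alike libraries.

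The level of Pde6g was also compared with those of all mRNAs tested across the 16 libraries, after each group was centred on its own mean of log2(CPM + 0.1). The 10 mRNAs most like it were Tbxas1 (Pearson r = 0.83), Phldb2, Slc4a10, Prpsap2, Cpd, Ptpn13, Wwp1, Ppid, Bst2 and Eya4 (r = 0.77). These are the highest of 17884 correlations over 16 libraries that share depth and preparation, and with 0 to 18 counts of Pde6g per library they are given as a description only. None of the 10 is among the 8 genes or the listed retinal and pineal genes. The other genes of the group had r with Pde6g of −0.35 (Pde6b), −0.17 (Sag), 0.23 (Aanat), −0.21 (Asmt) and −0.02 (Tph1).

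The same edgeR fit held 79 further genes of these pathways, in 5 lists, of which 77 had enough counts to be tested. With edgeR 0 of the 77 were DEmRNAs, beside 0.117% of all mRNAs tested, so that a count of 0 is near that share. With DESeq2 0 were called, where a gene without an adjusted p counts as not called. At an adjusted p under 0.05 without the fold threshold, 2 passed (2.60%, beside 2.42% of all mRNAs tested). At an unadjusted p under 0.05, 9 were higher in EAE (11.7%, beside 7.92% of all mRNAs) and 5 lower (6.49%, beside 9.52%), together 18.2% beside 17.4%. The joint share of listed genes past either threshold was thus near that of all mRNAs.

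The first of these 2 genes was Slc24a1, the sodium, calcium and potassium exchanger of rods, which rose in EAE. Its FPKM ran from 0.770 through a median of 1.22 to 1.70 in EAE and from 0.648 through 0.781 to 1.04 in PBS libraries. Of the EAE libraries, 6 were above every PBS library. The log2 fold change was 0.59 (SE 0.15, edgeR adjusted p = 0.0361). In fits without 1 library the adjusted p stayed under 0.05 in 4 of 16 (without EAE 4, EAE 5, PBS 4 or PBS 6), and its highest value was 0.0800 (without EAE 6).

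The second was Adra1b, an alpha-1 adrenergic receptor that also acts in the pineal gland, which fell in EAE. Its FPKM ran from 2.92 through a median of 3.40 to 4.08 in EAE and from 3.75 through 4.25 to 4.39 in PBS libraries. Of the EAE libraries, 5 were below every PBS library. The log2 fold change was −0.31 (SE 0.08, edgeR adjusted p = 0.0380), and the adjusted p stayed under 0.05 in 5 of the 16 fits without 1 library (EAE 4, EAE 5, EAE 7, PBS 4 or PBS 5), with a highest value of 0.0884 (again without EAE 6).

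In the phototransduction list, 26 of 27 genes were tested, with a median log2 fold change of 0.12. Besides Slc24a1, those past an unadjusted p under 0.05 were Gnat2, the transducin alpha subunit of cones (0.74, SE 0.29), Gnb3, the beta subunit of cone transducin (1.09, SE 0.47), and recoverin, Rcvrn (0.50, SE 0.23), with values above 0. Those below 0 were the cone channel subunit Cnga3 (−0.80, SE 0.33), the exchanger Slc24a2 (−0.16, SE 0.06) and Gnb1, the widely used G protein beta subunit (−0.11, SE 0.05). Adjusted p was 0.156 to 0.265 in all 6 (edgeR). Gnb1 (mean FPKM 166), Slc24a2 (71.5) and Gnb5 (24.4) were the highest of the list, and are used by neurons in general. The rod gene Gnat1 (mean FPKM 0.0768) and the cone genes Arr3 (1.45) and Pde6h (1.52) were at the low levels of the 8 genes or a little above them.

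In the list of photoreceptor structure and retinoid handling, 0 of 15 genes passed an unadjusted p under 0.05 and the median log2 fold change was −0.07. Pde6d, a carrier of prenylated proteins (mean FPKM 8.99), Unc119, a carrier of acylated proteins (8.59), and the photoreceptor cadherin Cdhr1 (5.10) were the highest. Of 16 transcription factors of photoreceptors and the pineal gland, with a median of −0.08, those past an unadjusted p under 0.05 included Isl1 above 0 (0.32, SE 0.15, edgeR adjusted p = 0.279) and Neurod1 below 0 (−0.38, SE 0.13, adjusted p = 0.119). Lhx2 (mean FPKM 11.2), Rorb (9.85) and Pax6 (2.61) led the list in level, and Otx2, which acts upstream of Crx in photoreceptors and pinealocytes, stood at 0.695.

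In the serotonin and melatonin list, 11 of 12 genes were tested, with a median of −0.02. The vesicular monoamine transporters Slc18a1 (log2 fold change 0.22, SE 0.10) and Slc18a2 (0.25, SE 0.08) passed an unadjusted p under 0.05, with adjusted p of 0.240 and 0.0929 (edgeR). Qdpr (mean FPKM 72.5) and Pts (10.6), which recycle and make the tetrahydrobiopterin cofactor, and Maob (9.16), which breaks down amines, were the highest. Tph2, the neuronal counterpart of Tph1, had a mean FPKM of 0.803, and Ddc, the next enzyme to serotonin, 6.21. In the adrenergic list, with a median of −0.06 over 9 genes, the cAMP phosphodiesterase Pde4b (0.21, SE 0.09, edgeR adjusted p = 0.224) passed an unadjusted p under 0.05 beside Adra1b. Pde4b (mean FPKM 22.3), the beta-1 adrenergic receptor Adrb1 (8.80) and Fosl2 (7.94) led this list.

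**Figure D3:**
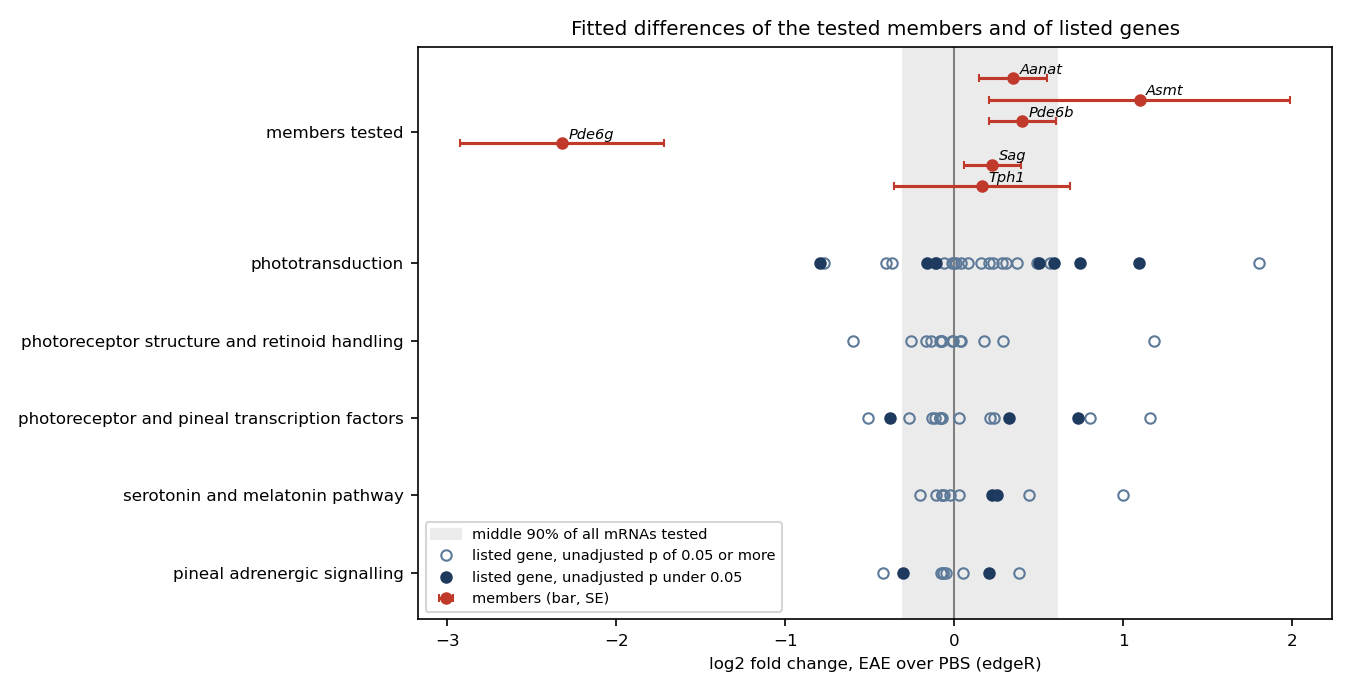
Log2 fold change of EAE over PBS from the edgeR fit (x axis) for the 6 genes tested, with SE bars, and for the genes of 5 pathway lists, 1 point per gene. Pde6g stood at −2.32, apart from the 5 others at 0.16 to 1.10, and the listed genes past an unadjusted p under 0.05 (filled points) lay on both sides of 0.

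Markers of other tissue near the pineal gland were summed in the same libraries. The 6 markers of the choroid plexus summed to 79.4 to 134 FPKM in EAE (median 83.4) and 102 to 241 in PBS libraries (median 157). Over all 16 libraries the ranges overlapped. Of the 6, 3 passed an unadjusted p under 0.05, all below 0 (50%, beside 9.52% of all mRNAs tested). Folr1 (−0.16), Clic6 (−0.18) and Kcnj13 (0.16) did not pass it. Ttr, the transthyretin of this epithelium, fell in EAE (log2 fold change −0.88, SE 0.18, edgeR adjusted p = 0.0163). It made up most of the sums, with a mean FPKM of 80.0 in EAE and 142 in PBS beside mean sums of 91.6 and 157.

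Within each set of libraries the choroid plexus sums, which are mostly Ttr, did not overlap. They were 79.4 to 87.5 in EAE and 102 to 104 in PBS in the most alike libraries, and 79.4 to 134 in EAE and 144 to 241 in PBS in the other 5 of each group. The 6 markers of the habenula, which lies next to the pineal stalk, summed to 22.5 to 31.7 in EAE and 22.2 to 33.0 in PBS, and 0 of the 6 passed an unadjusted p under 0.05. Tac1 (mean FPKM 13.4 over the 16 libraries) and Nwd2 (7.36) made up most of these sums, while Pou4f1 stood at 0.224. The 8 neutrophil markers summed to 23.1 to 64.1 in EAE and 9.31 to 24.0 in PBS. The part of any of these in the Pde6g or Crx values was not tested. Next to Pde6g, Tspan10 at 655 bases had a log2 fold change of −0.93 (SE 0.78, edgeR adjusted p = 0.583) and Oxld1 at 3106 bases −0.14 (SE 0.17, adjusted p = 0.732).

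**Figure D4:**
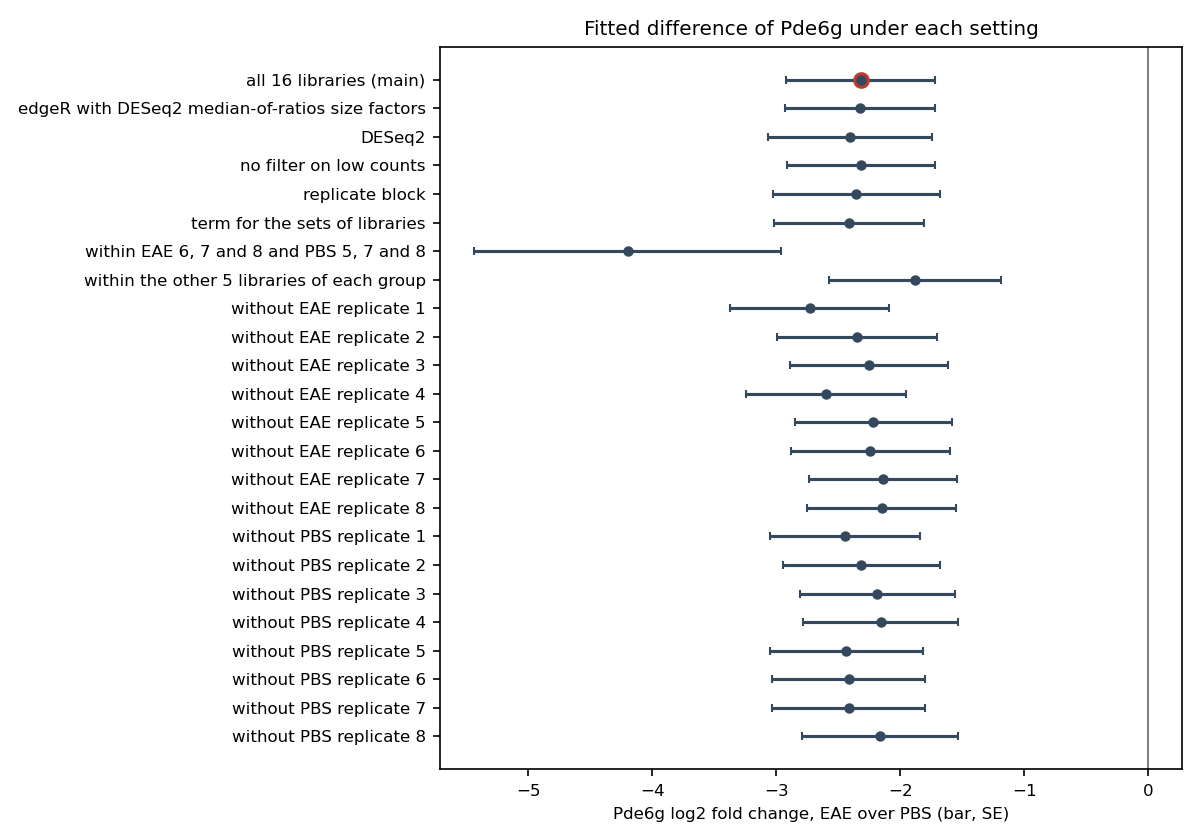
Fitted Pde6g log2 fold change of EAE over PBS (x axis) with SE bars under each setting, the value over all 16 libraries in the top row. Every setting plotted gave a value below 0, from −4.20 within EAE 6, 7 and 8 and PBS 5, 7 and 8 to −1.88 in the other 5 libraries of each group. All settings use the libraries whose contrast chose the gene.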

How the data were processed

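The authors aligned the reads with HISAT2 2.1.0, counted them per gene with HTSeq 0.11.2 and deposited raw counts and FPKM of 21878 mRNAs. The labels also name DESeq2 1.22.2 and bcl2fastq and the build GRCm38. Here mRNAs with at least 16 counts in all (17885) were fitted with edgeR 4.0.16 (TMM scaling, quasi-likelihood test, group as the only term, Benjamini-Hochberg adjustment) in R 4.3.3. DESeq2 1.42.0, other scaling, filters of 0 and 160 counts, a replicate block, a term for the sets of libraries, fits within each set and fits without each library were the alternatives. Standard errors are the log2 fold change over the root of F. The fit was tested on simulated data. FPKM values deposited by the authors equalled the counts over a fixed length and the library total, to a relative spread of at most 1.15e-09, in 7749 mRNAs with over 500 counts in every library. Intervals are exact 95% limits for counts and cover counting error only.

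The 8 genes, the pathway and marker lists and the sets of libraries were chosen with earlier results of these data known. Named were the 8 genes, listed mRNAs at an unadjusted p under 0.05, the 3 highest in FPKM of each list, and the 10 most like Pde6g, except that 1 listed gene past that p is not reported here. Gnat1, Arr3, Pde6h, Pde6a, Otx2, Tph2, Ddc, Ttr and neighbouring genes were added after their values were seen. Of the 44 combinations of a group with a gene or list sum, all were searched for a library that stood apart. Promoter windows came from RefSeq, with no window for Pde6g or Aanat and mostly unassigned bases for Asmt.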

Additional observations from a re-analysis of the deposited data

Results flagged for a closer look

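In 5 of 44 groups of 8 libraries there was 1 library far from the rest, where chance gives about 1 in 20 for continuous values. Crx in PBS 7 (FPKM 0.0194) and Gngt1 in PBS 5 (FPKM 0.0100) were the only libraries of their group with any count, of 2 and 1. A lone library above 0 is always flagged by this rule, so the 1 in 20 does not hold for them. In EAE 4 the summed FPKM of the choroid plexus markers (134) and the habenula markers (31.7) stood above the other 7 EAE libraries, and that of the adrenergic list (44.7) below them. In this library Pde6g had 4 counts, the second highest in EAE, and the Pde6g log2 fold change stayed below 0 without it (the range is given with the fits that leave out 1 library).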

How the results depend on the processing

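The log2 fold change of Pde6g was below 0 in every fit that could be made, from −4.20 within EAE 6, 7 and 8 and PBS 5, 7 and 8 to −1.88 in the other 5 libraries of each group, and from −2.73 to −2.14 in fits without 1 library. These fits use the libraries whose contrast chose the gene, so this is a description and no support. A filter of 160 counts removed Pde6g. Replicate numbers did not pair the samples (correlations of same-numbered libraries −0.20 to 0.50, 3 of 8 over 0.1, 3 of 8 highest with their own number). With the replicate block Pde6g was not a DEmRNA, and 15 higher and 1 lower DEmRNAs were called, against 17 and 4 without it. DESeq2 called 23 and 3, the term for sets 34 and 4, and the fits within each set 104 and 73 in the most alike libraries and 5 and 1 in the others. Of the 77 listed genes, 0 were higher and 0 lower DEmRNAs, beside 0.117% of all mRNAs tested. The range was 0 to 0 in fits without 1 library. An adjusted p under 0.05 alone gave 1 higher and 1 lower, an unadjusted p gave 9 and 5, and the most alike libraries gave 1 lower. The block gave Slc24a1 an adjusted p of 0.0806 and Adra1b 0.0598. Slc24a2 was 0.0071 within the most alike libraries, against −0.16. The causes were not tested. With 0 to 18 counts per library, depth limits Pde6g, Crx, Gngt1, Asmt and Tph1.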
